A study of Mus musculus with 16 samples.

Results

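Livers of aged mice labelled as exposed to antibiotics, in the group named PAM II, were compared with livers of young adult mice by RNA sequencing. The comparison takes the 4 libraries of 102-week mice whose group label ends in PAM II and the 4 libraries of 12-week mice labelled young adults, 8 of the 16 libraries in the series. The labels give the young mice no antibiotics, so age and antibiotic history differ together between these groups and their parts in any difference cannot be told apart. The series title places the antibiotics in early life. The labels do not give the drugs, doses, route, strain or sex of the mice, or what PAM stands for. For the young samples the description field speaks of aged mice, whereas title, age and group all say 12 weeks, and they were taken as 12-week samples. A second set of 4 livers, 102 weeks old and without antibiotics (aged controls), is set beside PAM II below and tested against it directly. The 4 aged PAM I livers entered only the filter on low counts, the scaling, the estimate of the spread and the principal components. By their names, the files of PAM II and young came from plate column 2 and those of both other aged groups from plate column 1. Libraries are called by group and a number that only names them within the group (PAM II 1 to 4, young 1 to 4). Values are listed in that order. Nothing in the labels says whether replicates were separate animals or how they were drawn, so p-values measure the spread between these samples.

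The liver is made mostly of hepatocytes, which secrete plasma proteins, metabolise drugs, steroids and bile acids, and store or burn fat. Many hepatocyte genes in mice differ between the sexes, because growth hormone is secreted in sharp pulses in males and more continuously in females, and STAT5 carries that pattern to the promoters of cytochromes, sulfotransferases and major urinary proteins. Resident macrophages (Kupffer cells), recruited macrophages, lymphocytes, endothelium, stellate cells and bile duct cells share the tissue. In bulk RNA, fewer cells of a type and less RNA per cell cannot be told apart.

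The 4 PAM II libraries held 41233838 to 52090914 assigned fragments and the 4 young libraries 36968993 to 42733282. Between 22620 and 23644 genes had at least 1 fragment in PAM II and between 20002 and 23001 in young, with young 1 lowest. On the first principal component of the 16 libraries, which carried 48.8% of the variance, the young livers lay between 34.99 and 51.77 and all 12 aged livers between -27.18 and -2.05. Levels are fragments of a gene per 1000000 assigned fragments (CPM), scaled between libraries by the TMM method. Albumin (Alb) made up 64368 to 89922 CPM in all 8 libraries, and the defining markers of pancreas (Cpa1, Ctrb1), fat (Adipoq, Plin1, Lep) and kidney (Umod, Slc12a1) were at or below 0.0749 CPM. Of the same marker set, Cela1, an elastase gene of pancreas, ranged from 8.11 to 15.7 CPM in PAM II and from 13.3 to 26.6 CPM in young (log2 fold change -0.88, adjusted p = 0.0668). Fabp2, a fatty acid binding protein of intestine, ranged from 49.7 to 74.9 CPM in PAM II and from 34.3 to 49.8 CPM in young (log2 fold change 0.62, adjusted p = 0.0846). Of 18 pancreas genes, 3 were tested (Cela1, Cela2a and Ctrl). Their log2 fold changes lay between -1.28 and -0.88, and 0 of the 3 were called by edgeR (adjusted p from 0.0668 to 0.325). At an unadjusted p below 0.05 there were 2, and DESeq2 called 1 and limma voom 2 of them lower. Skeletal muscle transcripts were uneven within both groups: Acta1 ranged from 0 to 19.1 CPM in PAM II and from 0 to 20.9 CPM in young. The mean log2 CPM of the 27 muscle genes was -1.57, 0.76, 1.41 and 2.45 in PAM II and 2.52, -2.13, 0.02 and 0.95 in young. No muscle gene was called between PAM II and young (edgeR quasi-likelihood test, 2 at an unadjusted p below 0.05, 1 called by DESeq2 and 3 by limma voom). PAM II 1 stood apart in transcripts of granulocytes and macrophages, whose values are given with those results. Ddx3y, a gene of the Y chromosome, ranged from 21.5 to 36.8 CPM in PAM II and from 26.7 to 42.3 CPM in young.

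Of 17046 genes tested, 541 were higher and 343 lower in PAM II than in young livers (edgeR quasi-likelihood test, Benjamini-Hochberg adjusted p below 0.05). These called genes are 5.19% of all genes tested, 3.17% higher and 2.01% lower, and the shares are the background for the lists below. At least a 2-fold difference was seen for 609 of the 884, and for 824 of them the 4 PAM II libraries did not overlap the 4 young libraries, a separation found in 14.3% of all genes tested (8.17% with PAM II above and 6.14% with PAM II below). Log2 fold changes are PAM II over young, ± their standard error, with 4 livers a group. Their median over all genes tested was -0.02. The plot of fold change against p for all genes has called genes on both sides of 0, with Cyp2b9 on the right and Gstp1 on the left among those of smallest adjusted p. The number of called genes depended on single libraries. It was 204 higher and 169 lower without young 4, 292 and 195 without young 1, 304 and 198 without PAM II 1, and 327 and 179 without PAM II 2. Leaving out PAM II 3 gave 412 higher and 217 lower genes, and leaving out young 3 gave 414 and 261. Of the 884 called genes, 310 stayed called whichever of the 8 libraries was left out. A gene named below as having risen or fallen, with no library named, is one of those 310. Where a gene is not, the libraries whose absence ended its call are named. With PAM II 1 as the only PAM II library, 355 of the 884 stayed called. Among genes named below that were called whichever single library was dropped, those then not called were A1bg, Acot3, Cdh1, Cyp2a22, Cyp2b13, Cyp2c38, Cyp2c39, Cyp4a12b, Elovl3, Fitm1, G0s2, Gadd45g, Gstm2, Hao2, Klkb1, Lgals1, Mup14, Mup20, Noct, Pparg, Serpina1c, Serpina1e, Serpinb1a, Slc22a26, Tk1, Vnn1 and 6430590A07Rik.

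**Figure D1:**
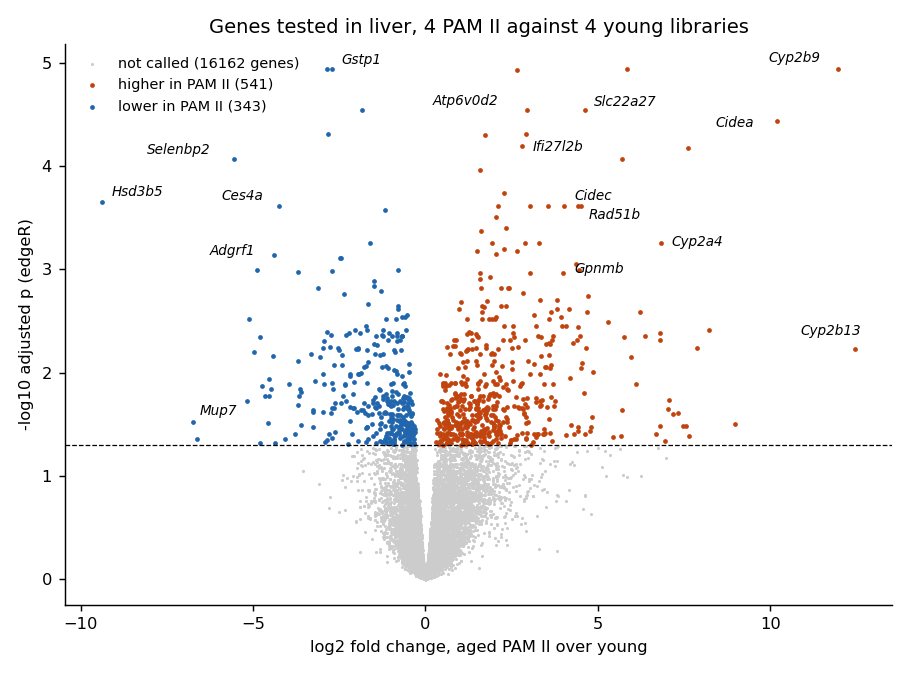
Log2 fold change (x axis, PAM II over young, 4 livers each) against -log10 of the adjusted p (y axis) for the 17046 genes tested, each point 1 gene, with called genes coloured by direction and some named. The 541 higher and 343 lower genes lie above the dashed line at an adjusted p of 0.05, and Cyp2b9 and Cidea lie far to the right and Hsd3b5 farthest to the left.

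Genes that are expressed more in female than in male mouse liver were higher in PAM II. Of the 29 tested genes on this list, 19 rose and 1 fell, against 3.17% and 2.01% of all genes, and the median log2 fold change of the list was 2.89. The clearest was Cyp2b9 (ENSMUSG00000040660, chr7:26173411-26210661 on mm10), a cytochrome P450 of the drug-metabolising Cyp2b family. Its level was 88.4, 250.2, 192 and 349 CPM in PAM II and 0, 0.0998, 0.0243 and 0.0805 CPM in young. Young libraries thus held 8 Cyp2b9 fragments in all and PAM II libraries 38725, with no overlap (log2 fold change 11.95 ± 0.99, adjusted p = 1.16e-05). The neighbouring copy Cyp2b13 (ENSMUSG00000040583, chr7:26061497-26096197) had 5.79, 24.8, 12.9 and 19.6 CPM in PAM II 1 to 4 and no fragment in any young library. Set against a floor of 3 fragments over the young group, Cyp2b13 was at least 744-fold higher in PAM II (adjusted p = 0.00595). The genes are close copies, so the authors' counting could move fragments from one to the other. Their promoters, shown because the pair went from near 0 to clearly expressed together, were almost the same in the 250 bases before the gene start. These RefSeq sequences (GRCm38.p6, plus strand, 5′ to 3′; Cyp2b9 at chr7:26173159-26173408 and Cyp2b13 at chr7:26061245-26061494) agree at 248 of 250 positions (99.2%). Capitals mark the positions that differ, which are T48C and C104T counted from 1 at the 5′ end with the Cyp2b9 base first.
Cyp2b9: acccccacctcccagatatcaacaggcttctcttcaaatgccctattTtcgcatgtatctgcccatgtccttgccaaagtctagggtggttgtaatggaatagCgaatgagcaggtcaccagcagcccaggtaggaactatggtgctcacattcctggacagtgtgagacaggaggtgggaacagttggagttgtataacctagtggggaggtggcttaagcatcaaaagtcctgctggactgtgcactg
Cyp2b13: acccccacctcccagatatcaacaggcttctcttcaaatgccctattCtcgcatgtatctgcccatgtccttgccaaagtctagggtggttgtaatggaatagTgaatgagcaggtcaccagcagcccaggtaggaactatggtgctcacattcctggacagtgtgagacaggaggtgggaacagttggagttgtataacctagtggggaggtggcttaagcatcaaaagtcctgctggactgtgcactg
Neither window holds the STAT motif TTCNNNGAA, in which N is any base.

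Other female-biased genes that rose were further enzymes and transporters of hepatocytes. Cyp2a4, a steroid hydroxylase of the Cyp2a family, measured 15.1, 56, 20.5 and 48.3 CPM in PAM II and 0.336, 0.349, 0.34 and 0.188 CPM in young (log2 fold change 6.83 ± 0.88, adjusted p = 0.000552). Slc22a27, a member of the organic anion transporter family, measured 12.9, 20.6, 15.5 and 18.2 CPM in PAM II and 0.214, 1.17, 0.729 and 0.536 CPM in young (log2 fold change 4.64 ± 0.43, adjusted p = 2.85e-05). For both genes the lowest PAM II library was far above the highest young library. Its relative Slc22a26 measured 7.39, 12, 16.5 and 14.3 CPM in PAM II and 0.336, 1.02, 1.17 and 0.161 CPM in young (log2 fold change 4.19 ± 0.85, adjusted p = 0.0112), also without overlap. Cyp17a1, which makes androgen precursors from progestins, measured 95.5, 116, 50.6 and 93.2 CPM in PAM II and 9.61, 4.69, 13.4 and 3.62 CPM in young (log2 fold change 3.50 ± 0.69, adjusted p = 0.00873). Hao2, a peroxisomal hydroxyacid oxidase, measured 2.15, 8.0, 5.52 and 12.1 CPM in PAM II and 0, 0.0499, 0.0243 and 0.161 CPM in young (log2 fold change 6.80 ± 1.21, adjusted p = 0.00477). The 4 young libraries held 9 Hao2 fragments in all and the PAM II libraries 1211. Atp6v0d2, which belongs to the vacuolar proton pump, had a smaller but very even rise, from 1.21 to 1.95 CPM in young to 7.75 to 14.1 CPM in PAM II (log2 fold change 2.95 ± 0.27, adjusted p = 2.85e-05). A1bg, a secreted plasma glycoprotein, was uneven: 0.155, 4.73, 4.31 and 13.2 CPM in PAM II and 0.153, 0.025, 0.146 and 0.0268 CPM in young (log2 fold change 5.97 ± 1.14, adjusted p = 0.00704). PAM II 1 held almost no A1bg and lay just above young 1, and with PAM II 1 as the only PAM II library the gene was not called. Sult3a1, a sulfotransferase, showed the same order of the PAM II libraries, 0.0516, 1.49, 0.805 and 3.38 CPM, with no fragment in any young library. It was at least 65.8-fold higher (adjusted p = 0.0311), but was not called without any 1 library other than PAM II 1 or PAM II 3 (adjusted p from 0.051 to 0.0777). The 1 list member that fell was Enho, which encodes the peptide adropin. Its values were 6.08, 1.27, 4.55 and 1.38 CPM in PAM II and 25.9, 12.9, 42.4 and 47.3 CPM in young, without overlap (log2 fold change -3.26 ± 0.83, adjusted p = 0.0333), and it was not called without any 1 library other than PAM II 1 or young 2 (adjusted p from 0.0594 to 0.0876). The number of female-biased genes called higher was 12 without young 4.

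Genes expressed more in male than in female mouse liver moved the other way. Of the 30 tested genes, 27 fell and 0 rose, with a list median of -2.48. The 3 that were not called were C8a, Bcl6 and Nat8f5. The number of male-biased genes called lower was 19 without PAM II 2 or young 4. Hsd3b5, a male-predominant steroid reductase, measured 0.138, 0.203, 0.478 and 0.492 CPM in PAM II and 185, 187, 175 and 311 CPM in young (log2 fold change -9.37 ± 1.09, adjusted p = 0.00022). Every PAM II liver held less than 0.5 CPM of a transcript that reached at least 175 CPM in every young liver. Selenbp2, a selenium-binding protein, measured 12.1, 8.36, 17.5 and 6.92 CPM in PAM II and 374, 235, 557 and 948 CPM in young (log2 fold change -5.56 ± 0.59, adjusted p = 8.53e-05). Serpina1e, a protease inhibitor of the alpha-1-antitrypsin cluster, measured 392, 172, 501 and 163 CPM in PAM II and 8081, 6536, 13881 and 14236 CPM in young (log2 fold change -5.12 ± 0.84, adjusted p = 0.00299). The highest PAM II library thus held 501 CPM of Serpina1e and the lowest young library 6536 CPM. Gstp1, a glutathione transferase, fell from a young range of 882 to 1597 CPM to a PAM II range of 160.4 to 222 CPM and was, with Cyp2b9, among the genes of smallest adjusted p (log2 fold change -2.70 ± 0.22, adjusted p = 1.16e-05). Ces4a, a carboxylesterase, fell from a young range of 2.65 to 7.51 CPM to a PAM II range of 0.101 to 0.391 CPM (log2 fold change -4.25 ± 0.50, adjusted p = 0.000241). None of these 5 genes overlapped between the groups.

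Further male-biased genes covered fatty acid, steroid and pheromone-carrier functions. Elovl3, a fatty acid elongase, measured 70.9, 62.6, 164 and 127 CPM in PAM II and 406, 739.8, 495 and 838 CPM in young (log2 fold change -2.55 ± 0.47, adjusted p = 0.00573). Cyp4a12b, a fatty acid hydroxylase, measured 3.45, 4.46, 6.59 and 1.83 CPM in PAM II and 90.1, 107, 85.9 and 77.9 CPM in young (log2 fold change -4.47 ± 0.95, adjusted p = 0.0143), and was not called when genes with few counts were kept in the test. The major urinary proteins, small carriers of pheromones that male livers secrete in bulk, had 8 tested genes on the list, all called lower. Mup3, Mup20 and Mup21 stayed called whichever library was dropped, Mup16 in 7 of those 8 fits, Mup7, Mup11 and Mup12 in 2 and Mup1 in 0. Mup20 (darcin) measured 882, 416, 623 and 222 CPM in PAM II and 3460.4, 1787, 1882 and 2594 CPM in young (log2 fold change -2.18 ± 0.44, adjusted p = 0.0108). Mup14, which is not on the list, measured 26.1, 16.3, 30.5 and 13.6 CPM in PAM II and 422, 606, 420.2 and 871 CPM in young (log2 fold change -4.74 ± 1.0, adjusted p = 0.0135). Mup14 was also not called when genes with few counts were kept. Mup7 measured 2.77, 23.1, 17.6 and 30.2 CPM in PAM II and 1282, 1116, 966 and 4517 CPM in young (log2 fold change -6.74 ± 1.67, adjusted p = 0.03), with young 4 far above the other young livers, and it was not called without any 1 library other than young 2 or young 3 (adjusted p from 0.055 to 0.083). Single Mup genes are near-identical copies whose fragments can be split between them, so their separate values are uncertain; the same holds for the Cyp2a, Cyp4a12, Serpina1, Gstp and Slc22a26/27 copies. Keg1, a glycine acyltransferase-like gene, measured 37.6, 52.2, 69.9 and 74.5 CPM in PAM II and 224, 163, 226 and 255 CPM in young (log2 fold change -1.89 ± 0.32, adjusted p = 0.00413). Cyp7b1, which hydroxylates oxysterols and steroids, measured 38, 45.6, 75.3 and 66.5 CPM in PAM II and 100.4, 130.2, 221 and 324 CPM in young (log2 fold change -1.78 ± 0.40, adjusted p = 0.0197) and was not called without PAM II 1, PAM II 2 or young 4 (adjusted p from 0.0599 to 0.0742). Slco1a1, an organic anion uptake transporter, measured 16, 7.27, 28.2 and 1.92 CPM in PAM II and 267, 333, 286 and 378 CPM in young (log2 fold change -4.56 ± 1.14, adjusted p = 0.0307) and was not called without PAM II 1, PAM II 2, PAM II 4, young 1 or young 4 (adjusted p from 0.0573 to 0.0836). All 4 PAM II livers held less Cyp7b1 and less Slco1a1 than any young liver. Across libraries, the mean log2 CPM of the female-biased list was 2.17, 3.44, 3.05 and 3.53 in PAM II and -0.24, 0.46, 0.41 and 0.07 in young, and that of the male-biased list was 4.41, 4.62, 5.12 and 4.77 in PAM II and 7.79, 7.58, 7.62 and 8.39 in young. Neither list overlapped between the groups, and PAM II 1 was the lowest of the PAM II livers in both.

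**Figure D2:**
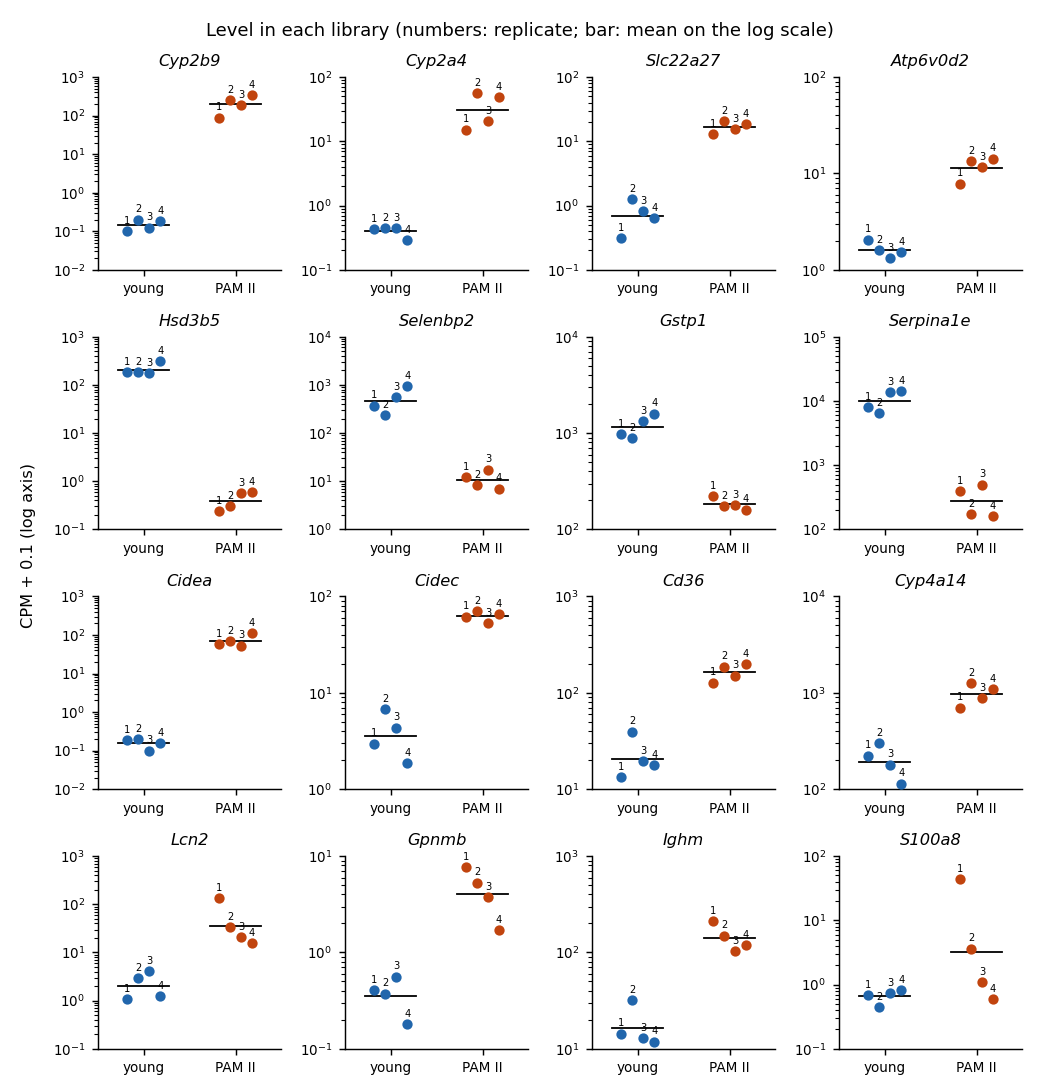
CPM plus 0.1 of 16 genes (log axes that differ between panels) in the 4 young and 4 PAM II livers, each point 1 numbered library and each bar the group mean on the log scale. PAM II lies above young in Cyp2b9 and below it in Hsd3b5 without overlap, whereas in S100a8 PAM II 1 stands far above all others and PAM II 4 lies among the young livers.

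The promoters of 2 further sex-biased genes are shown because they hold the STAT motif TTCNNNGAA, the letters that STAT5 binds, where N is any base and the motif reads the same on both strands. In the RefSeq windows of 250 bases before the gene start, 3 of the 12 female-biased genes that rose and had a promoter in the table held the motif (25.0%: A1bg, Slc22a26 and Sult3a1). The motif was in 1 of the 17 male-biased genes that fell and had a promoter there (5.88%: Keg1), and in 703 of 11610 promoters of all tested genes (6.06%). A match is a description of these letters only, and windows without it say nothing about the factor. Keg1 (GRCm38.p6 chr19:12695540-12695789, plus strand) has 2 motifs, starting 173 and 107 bases upstream of the end of the window. Slc22a26 (chr19:7802668-7802917, minus strand) has 1, starting 141 bases upstream. Both are printed 5′ to 3′ with the motifs in capitals.
Keg1: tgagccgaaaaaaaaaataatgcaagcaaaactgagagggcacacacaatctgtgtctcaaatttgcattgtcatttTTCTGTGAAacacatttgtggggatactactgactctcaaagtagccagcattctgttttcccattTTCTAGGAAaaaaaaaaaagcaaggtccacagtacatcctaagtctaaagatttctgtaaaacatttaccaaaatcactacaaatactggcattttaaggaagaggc
Slc22a26: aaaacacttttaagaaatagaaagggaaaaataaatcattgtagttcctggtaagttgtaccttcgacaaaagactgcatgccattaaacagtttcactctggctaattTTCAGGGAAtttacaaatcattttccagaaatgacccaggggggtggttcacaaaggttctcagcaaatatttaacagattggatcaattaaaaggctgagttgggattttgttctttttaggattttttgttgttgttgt

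Of 17 tested genes of growth hormone signalling itself, 1 rose (5.88%) and 2 fell (11.8%), against 3.17% and 2.01% of all genes, and the list median was -0.23. Prlr, the prolactin receptor, measured 84.4, 177, 184 and 222 CPM in PAM II and 74.4, 89.1, 75.5 and 73.9 CPM in young (log2 fold change 1.09 ± 0.26, adjusted p = 0.0252); PAM II 1 lay inside the young range, and the call was lost without any 1 library other than PAM II 1 or young 2 (adjusted p from 0.0564 to 0.0817). Igfbp2, a binding protein of insulin-like growth factors, measured 253, 214, 268 and 264 CPM in PAM II and 573, 387, 578 and 739 CPM in young without overlap (log2 fold change -1.19 ± 0.28, adjusted p = 0.024) and was not called without PAM II 1, PAM II 2, young 1 or young 4 (adjusted p from 0.0527 to 0.0802). Cish, a feedback inhibitor that STAT5 induces, ranged widely among young livers: 8.92, 7.01, 5.37 and 7.29 CPM in PAM II and 102, 5.94, 13.6 and 68 CPM in young (log2 fold change -2.72 ± 0.73, adjusted p = 0.0424). The PAM II values of Cish lay among the lowest young values, and the groups overlapped. The Cish call was lost without any 1 library other than young 2 or young 3 (adjusted p from 0.0779 to 0.137). Igf1, insulin-like growth factor 1, was not called by edgeR, and its groups overlapped. It measured 330, 489, 501 and 448 CPM in PAM II and 551, 454, 483 and 581 CPM in young.

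Drug-metabolising enzymes changed in both directions. Among 31 tested cytochromes and other oxidising enzymes, 3 rose (9.68%) and 2 fell (6.45%), with a median of 0.07. The 3 that rose were Cyp2a22, Cyp2c38 and Cyp2c39, members of the Cyp2a and Cyp2c families that oxidise drugs and fatty acids and have close copies. Cyp2a22 measured 17.6, 82.4, 47.2 and 79.1 CPM in PAM II and 2.66, 3.84, 1.36 and 0.885 CPM in young (log2 fold change 4.69 ± 0.75, adjusted p = 0.00261). Cyp2c38 measured 74.4, 172, 125 and 179 CPM in PAM II and 47.1, 56, 36.2 and 38.5 CPM in young (log2 fold change 1.63 ± 0.27, adjusted p = 0.00299). Cyp2c39 measured 2.49, 8.94, 5.87 and 11.2 CPM in PAM II and 0.58, 1.55, 0.753 and 0.939 CPM in young (log2 fold change 2.89 ± 0.51, adjusted p = 0.00477). In each of these 3 genes PAM II 1 was the lowest PAM II library, no library overlapped between the groups, and with PAM II 1 as the only PAM II library none was called. Of the genes that fell, Cyp2d10 had a log2 fold change of -0.61 (adjusted p = 0.019) and was not called without PAM II 1, young 1 or young 4 (adjusted p from 0.0573 to 0.0666). Cyp1a2, the main cytochrome for caffeine and aromatic amines, fell by a log2 fold change of -1.19 (adjusted p = 0.0327) and was not called without any 1 library other than PAM II 4 or young 3 (adjusted p from 0.0583 to 0.0997). Among 32 tested conjugating enzymes, 2 rose (6.25%) and 3 fell (9.38%), with a median of 0.02. The 3 that fell were Gstp1, which is also on the male-biased list, its copy Gstp2 (log2 fold change -2.82 ± 0.28, adjusted p = 4.83e-05) and Ugt2b5, a glucuronosyltransferase (log2 fold change -0.86 ± 0.17, adjusted p = 0.00969). Gstm2, a glutathione transferase of the mu class, rose from a young range of 43.6 to 77 CPM to a PAM II range of 106 to 164 CPM (log2 fold change 1.09 ± 0.22, adjusted p = 0.0106). Gstm3 (log2 fold change 1.38, adjusted p = 0.0464) was not called without any 1 of the 8 libraries (adjusted p from 0.0598 to 0.127).

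Genes of lipid droplets and triglyceride storage were higher in PAM II. Of 28 tested genes, 10 rose and 0 fell, with a median of 0.59, and the number that rose lay between 9 and 11 in the 8 fits that left out 1 library. Cidea, a protein of the lipid droplet surface that brown fat and fatty liver express, measured 57.6, 69.2, 53 and 113 CPM in PAM II and 0.0916, 0.0998, 0 and 0.0536 CPM in young (log2 fold change 10.19 ± 0.98, adjusted p = 3.67e-05). Its relative Cidec, which fuses lipid droplets, measured 61.7, 70.8, 53 and 66.1 CPM in PAM II and 2.87, 6.71, 4.25 and 1.77 CPM in young (log2 fold change 4.01 ± 0.47, adjusted p = 0.000241). Both were low in all young livers and of similar level in the 4 PAM II livers. Cidea was not called by limma voom (adjusted p = 0.0542), with a log2 fold change of 10.50. Of 14 genes on a list of fat tissue, 8 were tested and 2 rose, Cidea and Fabp4, whereas the defining fat cell markers Adipoq, Plin1 and Lep were at or near 0 in all 8 libraries. Cd36, the fatty acid uptake receptor, measured 127, 187, 151 and 199.6 CPM in PAM II and 13.2, 39.4, 19.5 and 17.8 CPM in young (log2 fold change 2.89 ± 0.38, adjusted p = 0.000557). Among enzymes that build triglycerides, Gpat3 rose from a young range of 1.25 to 2.77 CPM to a PAM II range of 7.68 to 14.5 CPM (log2 fold change 2.32 ± 0.29, adjusted p = 0.000396) and Mogat1 from a young range of 0.291 to 0.973 CPM to a PAM II range of 3.76 to 9.12 CPM (log2 fold change 3.32 ± 0.51, adjusted p = 0.00197). Pparg, the nuclear receptor that drives fat storage genes, measured 20.2, 26.1, 21.3 and 24.6 CPM in PAM II and 7.84, 14.3, 10.9 and 12.7 CPM in young (log2 fold change 1.01 ± 0.19, adjusted p = 0.00651). Fitm1, a protein of droplet formation, rose from a young range of 37.3 to 63.5 CPM to a PAM II range of 88.9 to 130 CPM (log2 fold change 1.10 ± 0.21, adjusted p = 0.00785). G0s2, an inhibitor of the triglyceride lipase ATGL, rose from a young range of 50.9 to 73.6 CPM to a PAM II range of 106 to 129 CPM (log2 fold change 1.03 ± 0.19, adjusted p = 0.00657). None of these 8 genes overlapped between the groups. Fabp4, a fatty acid binding protein of fat cells and macrophages, measured 55.5, 18.8, 13.6 and 12.2 CPM in PAM II and 5.95, 5.67, 7.55 and 6.73 CPM in young (log2 fold change 1.95 ± 0.42, adjusted p = 0.0157). PAM II 1 was far above the others, and without PAM II 1 the Fabp4 log2 fold change was 1.20; it was not called without young 1 (adjusted p = 0.0515). The mean log2 CPM of the whole list was 6.07, 6.19, 5.92 and 6.05 in PAM II and 4.81, 5.10, 4.72 and 4.68 in young, and the groups did not overlap.

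Targets of PPAR-alpha, the receptor that switches on fatty acid oxidation, rose in part. Of 40 tested genes, 7 rose and 0 fell, with a median of 0.29. The number that rose was 4 without PAM II 2, young 3 or young 4. Cyp4a14, a fatty acid omega-hydroxylase, measured 704, 1270.1, 889 and 1091 CPM in PAM II and 223, 299.5, 179.8 and 114 CPM in young (log2 fold change 2.28 ± 0.30, adjusted p = 0.000629). Acot2, a mitochondrial acyl-CoA thioesterase, measured 11.5, 15.8, 12.5 and 12 CPM in PAM II and 4.79, 5.14, 3.06 and 3.06 CPM in young (log2 fold change 1.69 ± 0.26, adjusted p = 0.0023), and its peroxisomal relative Acot3 measured 12, 33.3, 21.2 and 32.9 CPM in PAM II and 1.89, 6.64, 1.55 and 2.39 CPM in young (log2 fold change 2.99 ± 0.57, adjusted p = 0.0077). Vnn1, a pantetheinase that PPAR-alpha induces, measured 101, 129, 105 and 138 CPM in PAM II and 39.1, 61.8, 24.9 and 47 CPM in young (log2 fold change 1.46 ± 0.27, adjusted p = 0.00577). In each of these 4 genes every PAM II liver lay above every young liver. Genes of fatty acid synthesis gave 2 higher of 22 tested and a median of 0.69. Elovl6, an elongase of saturated fatty acids, measured 312, 479, 297 and 393 CPM in PAM II and 82.2, 201, 66.2 and 60.8 CPM in young (log2 fold change 1.85 ± 0.49, adjusted p = 0.0406) and was not called without any 1 library other than young 2 (adjusted p from 0.0595 to 0.122). Elovl5, an elongase of polyunsaturated fatty acids, had a log2 fold change of 1.06 (adjusted p = 0.044) and was not called without any 1 library other than young 2 (adjusted p from 0.0676 to 0.131). The number of fatty acid synthesis genes that rose was 0 without PAM II 1, PAM II 2, PAM II 3, PAM II 4, young 1, young 3 or young 4 and 4 without young 2. For cholesterol synthesis, 5 of 26 tested genes rose and none fell, with a median of 0.67. The count moved with single libraries: 0 without PAM II 2, young 1, young 3 or young 4, 2 without PAM II 3 or PAM II 4, 3 without PAM II 1 and 10 without young 2. Fdft1 (squalene synthase) measured 217, 255, 233 and 256 CPM in PAM II and 129, 172, 119 and 147 CPM in young (log2 fold change 0.76 ± 0.17, adjusted p = 0.018) and was not called without PAM II 2, young 1, young 3 or young 4 (adjusted p from 0.0503 to 0.0584). Acat2, a thiolase that makes acetoacetyl-CoA, measured 106, 124, 101 and 112 CPM in PAM II and 52.9, 82.3, 51.1 and 55.4 CPM in young (log2 fold change 0.88 ± 0.20, adjusted p = 0.0211) and was not called without PAM II 2, young 1, young 3 or young 4 (adjusted p from 0.0556 to 0.0748). Other calls were Hmgcs1 (log2 fold change 1.19) and Dhcr7 (0.66). Hmgcs1 was not called without any 1 library other than PAM II 1 or young 2 (adjusted p from 0.0526 to 0.0898). The same held for Dhcr7 without any 1 library other than young 2 (adjusted p from 0.0749 to 0.132).

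Among 28 genes of bile acid synthesis and transport, 1 rose and 2 fell, the latter being Cyp7b1 and Slco1a1. Abcc4, an export pump for bile acids and conjugates, measured 4.64, 8.94, 8.66 and 12.6 CPM in PAM II and 1.56, 2.57, 3.62 and 1.96 CPM in young (log2 fold change 1.84 ± 0.40, adjusted p = 0.0168) and was not called without young 1 or young 4 (adjusted p from 0.0564 to 0.0623). Of 30 genes of insulin signalling and glucose output, 2 fell. Gcgr, the glucagon receptor, measured 226, 258, 252 and 242 CPM in PAM II and 731, 309.6, 316 and 373 CPM in young, with young 1 far above the rest (log2 fold change -0.82 ± 0.21, adjusted p = 0.038). Without young 1 the Gcgr log2 fold change was -0.45, and the call was lost without PAM II 1, PAM II 2, PAM II 3, PAM II 4 or young 4 (adjusted p from 0.0634 to 0.0955). Rictor, a subunit of mTOR complex 2, measured 10.3, 19, 14.1 and 11.5 CPM in PAM II and 24.1, 19.3, 25.3 and 19.4 CPM in young (log2 fold change -0.68 ± 0.19, adjusted p = 0.0496) and was not called without any 1 library other than PAM II 2 (adjusted p from 0.0527 to 0.144). Of 30 genes of urea and amino acid metabolism, only Acmsd was called; this enzyme diverts tryptophan breakdown from NAD synthesis and measured 7.79, 11.6, 10.5 and 8.93 CPM in PAM II and 20.4, 21.3, 32.6 and 16.9 CPM in young (log2 fold change -1.24 ± 0.27, adjusted p = 0.0169), with the call lost without PAM II 1 (adjusted p = 0.0539). Among 39 complement and clotting genes, 7 fell (17.9%) and 0 rose, with a median of -0.11; the number that fell was 2 without young 4 and 4 without PAM II 2. The contact system proteases F11 (45.4, 61.1, 58.2 and 59 CPM in PAM II and 118, 81.5, 112 and 96.4 CPM in young; log2 fold change -0.86 ± 0.14, adjusted p = 0.00299) and Klkb1 (141, 161, 162 and 165 CPM in PAM II and 329.8, 193, 213 and 236 CPM in young; log2 fold change -0.63 ± 0.14, adjusted p = 0.0169) fell without overlap. Without PAM II 1 and young 1 together, the Klkb1 log2 fold change was -0.40 (adjusted p = 0.0586). Components of the membrane attack complex also fell. C9 measured 248, 208, 244 and 165 CPM in PAM II and 491, 545, 625 and 716 CPM in young (log2 fold change -1.46 ± 0.32, adjusted p = 0.0172) and was not called without young 4 (adjusted p = 0.0578). C8b had a log2 fold change of -1.67 (adjusted p = 0.0212) and was not called without PAM II 2, PAM II 4 or young 4 (adjusted p from 0.0506 to 0.0681). C6 had -1.87 (adjusted p = 0.023) and was not called without PAM II 2 or young 4 (adjusted p from 0.0647 to 0.0671).

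Among 28 genes of hepatocyte identity, 3 fell and none rose, and all 3 were copies of the alpha-1-antitrypsin cluster that also holds Serpina1e. Serpina1a, an abundant secreted protease inhibitor, measured 950.5, 1101, 1068 and 1013 CPM in PAM II and 1843, 1601, 1911 and 1890.2 CPM in young (log2 fold change -0.81 ± 0.13, adjusted p = 0.0024). Serpina1c measured 999, 994, 1408 and 1095 CPM in PAM II and 3497, 2323, 1954 and 2714 CPM in young (log2 fold change -1.22 ± 0.21, adjusted p = 0.00444). Serpina1d (log2 fold change -0.50) was not called without any 1 library other than PAM II 4 (adjusted p from 0.0562 to 0.0943). Serpina3k, a kallikrein inhibitor from the neighbouring cluster, measured 1399, 2009, 2939 and 2233 CPM in PAM II and 6882, 8306, 8051 and 10349 CPM in young (log2 fold change -1.97 ± 0.36, adjusted p = 0.00585). The Serpina copies therefore differed in size from -0.50 for Serpina1d to -5.12 for Serpina1e on the log2 scale, with the caveat on near-identical copies given above. Chka, choline kinase alpha, which starts phosphatidylcholine synthesis, measured 98.6, 81.3, 105 and 61.5 CPM in PAM II and 218, 158, 241 and 112 CPM in young (log2 fold change -1.08 ± 0.24, adjusted p = 0.02) and was not called without PAM II 2, young 1 or young 3 (adjusted p from 0.0532 to 0.0564).

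Macrophage genes were higher in PAM II, most clearly those of lipid-associated macrophages. Of 26 tested genes of that list, 9 rose and 0 fell, with a median of 1.71. Gpnmb, a glycoprotein of lipid-laden macrophages, measured 7.61, 5.22, 3.68 and 1.59 CPM in PAM II and 0.305, 0.275, 0.461 and 0.0805 CPM in young (log2 fold change 3.99 ± 0.57, adjusted p = 0.00108). Lgals1 (galectin-1) measured 77.6, 97.6, 86.4 and 120.1 CPM in PAM II and 36.5, 39.1, 24.4 and 24.5 CPM in young (log2 fold change 1.62 ± 0.24, adjusted p = 0.00151). Mmp12, the macrophage elastase, measured 3.71, 3.82, 2.13 and 1.81 CPM in PAM II and 0.214, 0.0998, 0.583 and 0.134 CPM in young (log2 fold change 3.45 ± 0.72, adjusted p = 0.0128) and was not called without young 4 (adjusted p = 0.052). Atp6v0d2, given with the female-biased genes, is also on this list. In these 4 genes every PAM II liver exceeded every young liver. The number of list genes that rose was 3 without young 4, 4 without PAM II 1 or young 1 and 5 without young 2. The list of resident Kupffer cell genes gave 4 higher of 22 and a median of 0.99, with PAM II 1 far above the others. Its mean log2 CPM was 5.59, 4.14, 4.59 and 4.18 in PAM II and 3.72, 3.78, 4.20 and 4.04 in young. Of the Kupffer cell markers in the marker set above, edgeR did not call Clec4f, Vsig4 or Timd4. Their log2 fold changes were 0.96 (adjusted p = 0.353), 1.67 (adjusted p = 0.103) and 0.88 (adjusted p = 0.446). Cd5l, which Kupffer cells secrete, measured 368, 96, 115 and 80.7 CPM in PAM II and 34.6, 49.3, 64.1 and 53.7 CPM in young (log2 fold change 1.71 ± 0.47, adjusted p = 0.0446). Without PAM II 1 its log2 fold change was 0.95, and the call was lost without any 1 library other than PAM II 2 or PAM II 4 (adjusted p from 0.0525 to 0.176). Hmox1 (heme oxygenase 1) measured 139, 32.5, 39 and 27.1 CPM in PAM II and 12.5, 20.5, 21.6 and 14.5 CPM in young (log2 fold change 1.78 ± 0.49, adjusted p = 0.0478); without PAM II 1 it was 0.93, and the call was lost without any 1 library other than PAM II 4 (adjusted p from 0.0501 to 0.199). Adgre1 (F4/80) had a log2 fold change of 1.99 (adjusted p = 0.0328) and was not called without PAM II 1, PAM II 3, young 1, young 2 or young 4 (adjusted p from 0.0576 to 0.115). Il18bp, the decoy of interleukin 18, had 1.01 (adjusted p = 0.0317), 0.65 without PAM II 1, and was not called without PAM II 1, PAM II 3, young 1 or young 4 (adjusted p from 0.0516 to 0.0907). The Kupffer count was 0 without PAM II 1, PAM II 3, young 1 or young 4, 1 without young 2 and 2 without young 3.

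Inflammatory and acute phase genes rose in part. Of 35 inflammatory genes, 6 rose, with a median of 0.86; the number was 2 without PAM II 1, PAM II 2 or PAM II 3 and 3 without young 1, young 2 or young 4. Il1b, the cytokine interleukin 1 beta, measured 7.0, 2.58, 3.5 and 1.31 CPM in PAM II and 0.916, 0.724, 0.874 and 0.59 CPM in young (log2 fold change 2.22 ± 0.43, adjusted p = 0.00864). Tnfaip3 (A20), a brake on NF-kappaB, measured 6.93, 5.67, 5.63 and 3.85 CPM in PAM II and 1.31, 2.2, 2.96 and 2.17 CPM in young (log2 fold change 1.35 ± 0.24, adjusted p = 0.00477). Both were without overlap. Ccl2, a monocyte attractant, had a log2 fold change of 2.12 (adjusted p = 0.0336) and was not called without any 1 library other than PAM II 4 or young 3 (adjusted p from 0.0563 to 0.102). Of 33 acute phase genes, 7 rose and 1 fell, the latter being Serpina3k, with a median of 0.53. The number that rose was 1 without PAM II 1, young 1 or young 4 and 4 without PAM II 2, young 2 or young 3. Lcn2 (lipocalin 2), an iron-scavenging protein of hepatocytes and neutrophils, measured 133, 33.4, 21 and 15.3 CPM in PAM II and 0.977, 2.82, 3.93 and 1.15 CPM in young (log2 fold change 4.50 ± 0.89, adjusted p = 0.00902). PAM II 1 was highest, but the lowest PAM II library still exceeded the highest young library, and without PAM II 1 the Lcn2 log2 fold change was 3.37. Steap4, a metalloreductase, had a log2 fold change of 1.02 (adjusted p = 0.018) and was not called without PAM II 1, young 1 or young 4 (adjusted p from 0.0543 to 0.0559). Apcs (serum amyloid P) measured 229, 115, 93.9 and 79.6 CPM in PAM II and 40.4, 56.9, 60.1 and 58.9 CPM in young (log2 fold change 1.26 ± 0.29, adjusted p = 0.0224); without PAM II 1 its log2 fold change was 0.83, and the call was lost without PAM II 1, young 1 or young 4 (adjusted p from 0.059 to 0.0706). Cp (ceruloplasmin) had 0.42 (adjusted p = 0.0461) and was not called without any 1 library other than PAM II 4 (adjusted p from 0.0589 to 0.131). Saa1, a classic acute phase gene, did not pass the test: it measured 201, 48.9, 52.8 and 50.9 CPM in PAM II and 15.6, 38.3, 46.1 and 25.9 CPM in young (log2 fold change 1.49, adjusted p = 0.206).

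Immunoglobulin transcripts were higher in PAM II. Of 33 genes of B and plasma cells, 5 rose and 0 fell, with a median of 1.07, and all called genes belonged to antibody production. Ighm, the heavy chain of IgM, measured 212, 149, 104 and 120 CPM in PAM II and 14.3, 31.9, 12.8 and 11.8 CPM in young (log2 fold change 3.05 ± 0.43, adjusted p = 0.00109). Igkc, the kappa light chain, measured 188, 60.01, 59.7 and 29.6 CPM in PAM II and 10.1, 3.37, 8.52 and 5.23 CPM in young (log2 fold change 3.63 ± 0.71, adjusted p = 0.00842). Ighg1, the heavy chain of IgG1, measured 2.53, 8.0, 2.46 and 11.7 CPM in PAM II and 0.0305, 0.0998, 0.0971 and 0.0536 CPM in young (log2 fold change 6.36 ± 1.11, adjusted p = 0.00444). For these 3 chains no PAM II library overlapped a young one. Jchain, which joins IgM and IgA chains, had a log2 fold change of 2.84 (adjusted p = 0.018) and was not called without PAM II 1, young 1 or young 4 (adjusted p from 0.0515 to 0.0636). Ighg2c had 4.32 (adjusted p = 0.0393) and was not called without PAM II 1, PAM II 2, young 1, young 2 or young 4 (adjusted p from 0.0559 to 0.137). The count of this list was 3 without PAM II 1, young 1 or young 4. The B cell surface markers Cd79a and Ms4a1 were at or below 6.36 CPM in all 8 libraries. Of 43 T and NK cell genes none was called by edgeR (9 at an unadjusted p below 0.05, 4 called by DESeq2 and 2 by limma voom); their median was 0.74. Among 45 interferon-stimulated genes, 2 rose, with a median of 0.36. Ifi27l2b, of the interferon-induced Ifi27 family, measured 30.8, 28.4, 22.2 and 20.8 CPM in PAM II and 3.57, 3.82, 5.34 and 1.98 CPM in young (log2 fold change 2.79 ± 0.29, adjusted p = 6.38e-05) without overlap. The other was Slfn8 (log2 fold change 1.18), not called without any 1 library other than young 3 (adjusted p from 0.0563 to 0.123). Of 27 antigen presentation genes, H2-D1, a class I molecule, rose (log2 fold change 0.55, adjusted p = 0.043), and it was not called without any 1 library other than young 2 (adjusted p from 0.0603 to 0.113).

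Granulocyte genes depended on 1 library. Of 12 tested genes, 6 were called higher, with a median of 4.30, but the mean log2 CPM of the list was 4.07, 0.85, -0.61 and -1.40 in PAM II and -1.97, -1.48, -1.24 and -1.56 in young. PAM II 1 and, less so, PAM II 2 and 3 lay above the young livers, and PAM II 4 lay inside the young range. S100a8, a subunit of the neutrophil protein calprotectin, measured 44.2, 3.54, 1.0 and 0.492 CPM in PAM II and 0.58, 0.349, 0.631 and 0.724 CPM in young (log2 fold change 4.43 ± 1.13, adjusted p = 0.0335). Without PAM II 1 its log2 fold change was 1.55 (adjusted p = 0.234), and the call was lost without PAM II 1, young 1, young 2, young 3 or young 4 (adjusted p from 0.0695 to 0.234). S100a9, its partner, went from 4.22 to 1.32 without PAM II 1, and was not called without PAM II 1, young 1, young 2, young 3 or young 4 (adjusted p from 0.0685 to 0.216). Ngp, a granule protein of immature neutrophils, measured 38.8, 2.2, 0.13 and 0.0469 CPM in PAM II and 0, 0.125, 0.0729 and 0 CPM in young (log2 fold change 7.55 ± 1.91, adjusted p = 0.0327), and 3.85 without PAM II 1; the call was lost without PAM II 1, young 1, young 2, young 3 or young 4 (adjusted p from 0.0573 to 0.188). Mpo (myeloperoxidase) had 7.47, and 3.95 without PAM II 1; the call was lost without PAM II 1, young 1, young 2, young 3 or young 4 (adjusted p from 0.0642 to 0.177). The granulocyte count was 1 without PAM II 1, young 1, young 2, young 3 or young 4. Erythroid genes were highest in the same library: their mean log2 CPM was 5.26, 2.38, 2.52 and 2.25 in PAM II and 3.31, 2.54, 2.30 and 2.95 in young. Of the 13 tested erythroid genes only Alas2, the heme synthesis enzyme of red cells, was called; it was lower (log2 fold change -0.87, adjusted p = 0.0329) and was not called without any 1 library other than PAM II 1 (adjusted p from 0.0516 to 0.0909).

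**Figure D3:**
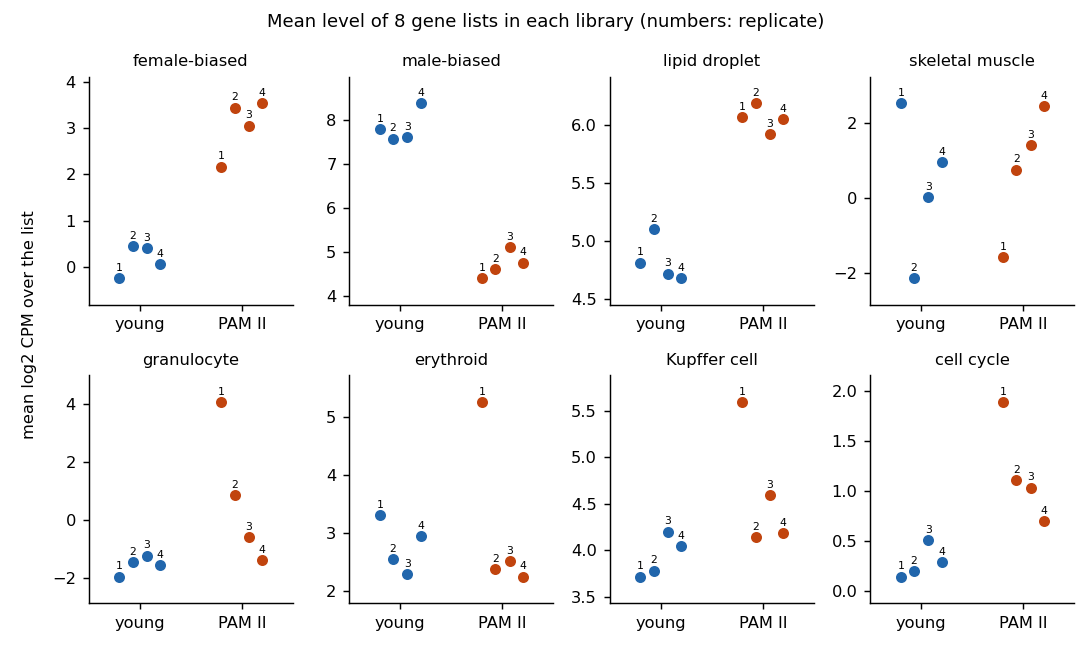
Mean log2 CPM of 8 gene lists (y axis, with ranges that differ between panels) in the 4 young and 4 PAM II livers, each point 1 numbered library. PAM II 1 lies at 4.07 for the granulocyte list and 5.59 for the Kupffer list, above the other PAM II livers, while the female-biased, male-biased, lipid droplet and cell cycle lists separate all PAM II from all young livers.

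Cell division genes were higher in PAM II. Of 43 tested genes, 15 rose and 1 fell, with a median of 1.02. The list's mean log2 CPM was 1.89, 1.11, 1.04 and 0.70 in PAM II and 0.15, 0.20, 0.51 and 0.29 in young, all PAM II livers lying above all young livers. Tpx2, a spindle assembly factor, measured 2.96, 1.14, 1.44 and 1.48 CPM in PAM II and 0.397, 0.449, 0.583 and 0.456 CPM in young (log2 fold change 1.89 ± 0.35, adjusted p = 0.00654). Mki67, the proliferation marker Ki-67, measured 16.8, 5.49, 4.76 and 2.77 CPM in PAM II and 1.59, 1.6, 2.23 and 1.31 CPM in young (log2 fold change 2.15 ± 0.44, adjusted p = 0.0117), and 1.36 without PAM II 1. Ccnb1 (cyclin B1) measured 1.12, 0.987, 0.50 and 0.586 CPM in PAM II and 0.214, 0.125, 0.194 and 0.215 CPM in young (log2 fold change 2.09 ± 0.43, adjusted p = 0.0127). Top2a, a topoisomerase of dividing cells, had a log2 fold change of 2.05 (adjusted p = 0.016) and was not called without young 4 (adjusted p = 0.0591). The 1 gene that fell was Tk1, a thymidine kinase, which measured 17.1, 14.5, 16.5 and 13.2 CPM in PAM II and 48.3, 29, 32.2 and 24.9 CPM in young (log2 fold change -1.13 ± 0.22, adjusted p = 0.00859). Levels of the rising genes were low, mostly a few CPM, and the number that rose was 3 without young 4, 5 without PAM II 1 and 6 without young 1. Of 14 DNA methylation genes only Uhrf1, which also acts in replicating cells, rose (log2 fold change 2.01, adjusted p = 0.021), and it was not called without PAM II 1, young 1 or young 4 (adjusted p from 0.0594 to 0.0697). Granulocyte, Kupffer cell and erythroid transcripts were highest in the same PAM II 1 library that had the highest Mki67, and their part in the cell division result was not tested.

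Genes linked to senescence gave 5 higher of 29 and a median of 0.42. Ptges, a prostaglandin E synthase, measured 5.59, 11.9, 4.55 and 4.34 CPM in PAM II and 1.89, 1.45, 0.0486 and 0.429 CPM in young (log2 fold change 2.80 ± 0.65, adjusted p = 0.022) and was not called without PAM II 2 or young 4 (adjusted p from 0.066 to 0.0777). Il1b, Mmp12 and Ccl2, given above, were also called. The number of these genes that rose was 2 without young 4 and 3 without PAM II 2. The cell cycle inhibitors did not pass the test. Cdkn1a (p21) measured 48, 21.5, 17.4 and 12.5 CPM in PAM II and 13.2, 12.1, 21.9 and 6.79 CPM in young (log2 fold change 0.88, adjusted p = 0.227), and Cdkn2a (p16) measured 3.45, 0.304, 0.522 and 0.328 CPM in PAM II and 0.397, 0.20, 0.267 and 0.107 CPM in young (log2 fold change 2.26, adjusted p = 0.0822). Of 37 genes of stellate cells and fibrosis, 4 rose, with a median of 0.57; the number was 0 without PAM II 1, young 1 or young 4 and 1 without PAM II 2, PAM II 3 or young 2. Ccn2, a matricellular protein, measured 16.2, 9.06, 8.4 and 7.43 CPM in PAM II and 2.35, 2.72, 4.01 and 0.939 CPM in young (log2 fold change 2.03 ± 0.47, adjusted p = 0.0209) and was not called without PAM II 1, young 1 or young 4 (adjusted p from 0.0594 to 0.0611). Tagln (1.02), Timp1 (2.49) and Mmp14 (0.63) were the other calls, as log2 fold changes. Tagln was not called without any 1 library other than PAM II 4 or young 3 (adjusted p from 0.0618 to 0.101), Timp1 without any 1 library other than young 3 (adjusted p from 0.0502 to 0.12) and Mmp14 without any 1 library other than PAM II 4 (adjusted p from 0.0519 to 0.143); without PAM II 1, the Mmp14 value was 0.41. Of 30 endothelial genes only Vwf (von Willebrand factor) rose (log2 fold change 1.0, adjusted p = 0.023), and it was not called without PAM II 1, PAM II 2 or young 4 (adjusted p from 0.0566 to 0.0814).

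Epithelial genes changed in both directions. Cdh1 (E-cadherin), the adhesion molecule of periportal hepatocytes and bile ducts, measured 25.1, 7.62, 7.39 and 4.13 CPM in PAM II and 51.2, 91.3, 122 and 87.5 CPM in young (log2 fold change -2.98 ± 0.55, adjusted p = 0.00577). Anxa2, a membrane-binding annexin that is low in healthy hepatocytes, measured 79.96, 54.1, 48.2 and 39.4 CPM in PAM II and 13.1, 17, 13 and 11.9 CPM in young (log2 fold change 2.01 ± 0.33, adjusted p = 0.00299). In both genes the groups did not overlap, and PAM II 1 was the highest PAM II library. The bile duct list held 2 higher and 2 lower of 20, with a median of 0.73 that was 0.21 without PAM II 1. Of the bile duct markers in the marker set above, edgeR did not call Krt19, Epcam, Krt7 or Sox9. Their log2 fold changes were 0.66, 1.25, 1.17 and 0.28 (adjusted p from 0.173 to 0.536). The other calls on the list were Tspan8 and Tff3. Tspan8 (log2 fold change 2.95) was not called without any 1 library other than PAM II 4 or young 2 (adjusted p from 0.0537 to 0.133). Tff3 measured 4.14, 1.01, 0.544 and 0.164 CPM in PAM II and 4.67, 3.29, 87.6 and 6.28 CPM in young (log2 fold change -4.09 ± 1.11, adjusted p = 0.0441). The Tff3 value rested on young 3 and was -1.67 without it, and the call was lost without PAM II 2, PAM II 3, PAM II 4, young 3 or young 4 (adjusted p from 0.059 to 0.229). Of 18 genes of fetal liver and liver tumours, 5 rose and 1 fell, with a median of 0.76; the number that rose was 2 without PAM II 1 or young 4 and 3 without PAM II 2, PAM II 3 or young 3. Ly6d, a surface protein of the Ly6 family, measured 26.8, 28.9, 7.74 and 8.28 CPM in PAM II and 0.733, 1.02, 0.923 and 0.966 CPM in young (log2 fold change 4.29 ± 0.77, adjusted p = 0.00511), without overlap. H19, an imprinted fetal RNA, measured 1.7, 1.01, 1.22 and 0.68 CPM in PAM II and 0, 0.20, 0.34 and 0.215 CPM in young (log2 fold change 2.57 ± 0.59, adjusted p = 0.0212) and was not called without PAM II 1 or young 4 (adjusted p from 0.0579 to 0.0636).

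Of 25 circadian genes only Noct (nocturnin), a phosphatase under clock control, was called by edgeR. At an unadjusted p below 0.05 there were 7, and limma voom called 2 higher and 3 lower. Noct measured 30.5, 154, 121 and 85.5 CPM in PAM II and 6.47, 6.64, 16.1 and 2.41 CPM in young (log2 fold change 3.63 ± 0.65, adjusted p = 0.00523). Dbp, a clock output gene that was not called, varied widely within both groups. It measured 18.3, 22, 3.31 and 30 CPM in PAM II and 45.8, 1.97, 3.5 and 6.01 CPM in young. Arntl, a core clock gene, was not called either and overlapped between the groups. The labels do not give the hour of collection. Of 22 immediate early genes, 3 rose (13.6%) and 1 fell (4.55%). Fosb, a subunit of the AP-1 transcription factor, measured 0.894, 1.14, 0.848 and 0.469 CPM in PAM II and 0.244, 0.15, 0.0971 and 0.0805 CPM in young (log2 fold change 2.55 ± 0.44, adjusted p = 0.00413). Egr2 (log2 fold change 2.04) was not called without PAM II 1, PAM II 2, young 1, young 2 or young 4 (adjusted p from 0.0789 to 0.113), and Klf6 (0.73) not without any 1 library other than PAM II 4 (adjusted p from 0.0599 to 0.13). Ier2 fell (log2 fold change -1.0, adjusted p = 0.0212) and was not called without PAM II 2 or PAM II 3 (adjusted p from 0.0558 to 0.0562). Of 34 stress genes only Hspa1b, a heat shock gene with the near-identical copy Hspa1a, was called; it was lower (log2 fold change -1.29, adjusted p = 0.0309) and not called without any 1 library other than young 1 or young 3 (adjusted p from 0.0516 to 0.0841). Of 33 targets of NRF2, 5 rose (15.2%), with a median of 0.15; the number was 0 without young 4, 1 without young 1, 2 without PAM II 1 or PAM II 2 and 3 without young 3. Nqo1, a quinone reductase, had a log2 fold change of 0.98 (adjusted p = 0.019) and was not called without PAM II 2, young 1 or young 4 (adjusted p from 0.0592 to 0.0701). Among 24 secreted hepatokines, 1 rose (4.17%) and 3 fell (12.5%), the latter being Enho, Igfbp2 and Fst. Fst (follistatin), which binds activins, measured 2.1, 3.47, 4.52 and 2.42 CPM in PAM II and 7.97, 6.69, 18.9 and 6.44 CPM in young (log2 fold change -1.68 ± 0.32, adjusted p = 0.0078). Inhbe, a liver activin subunit, rose (log2 fold change 0.98, adjusted p = 0.0317) and was not called without any 1 library other than PAM II 1 or young 2 (adjusted p from 0.0575 to 0.0951). Fgf21, a fasting and stress hormone, measured 14.5, 12, 6.39 and 5.68 CPM in PAM II and 1.07, 2.95, 3.01 and 3.46 CPM in young and missed the threshold (log2 fold change 1.87, adjusted p = 0.0649), although no library overlapped. Efemp1, an extracellular matrix protein on the capsule list, rose from a young range of 5.77 to 7.61 CPM to a PAM II range of 10.8 to 18.7 CPM (log2 fold change 1.15 ± 0.23, adjusted p = 0.00876). None of the 13 mitochondrially encoded genes was called by edgeR (3 at an unadjusted p below 0.05, 0 called by DESeq2 and 0 by limma voom).

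**Figure D4:**
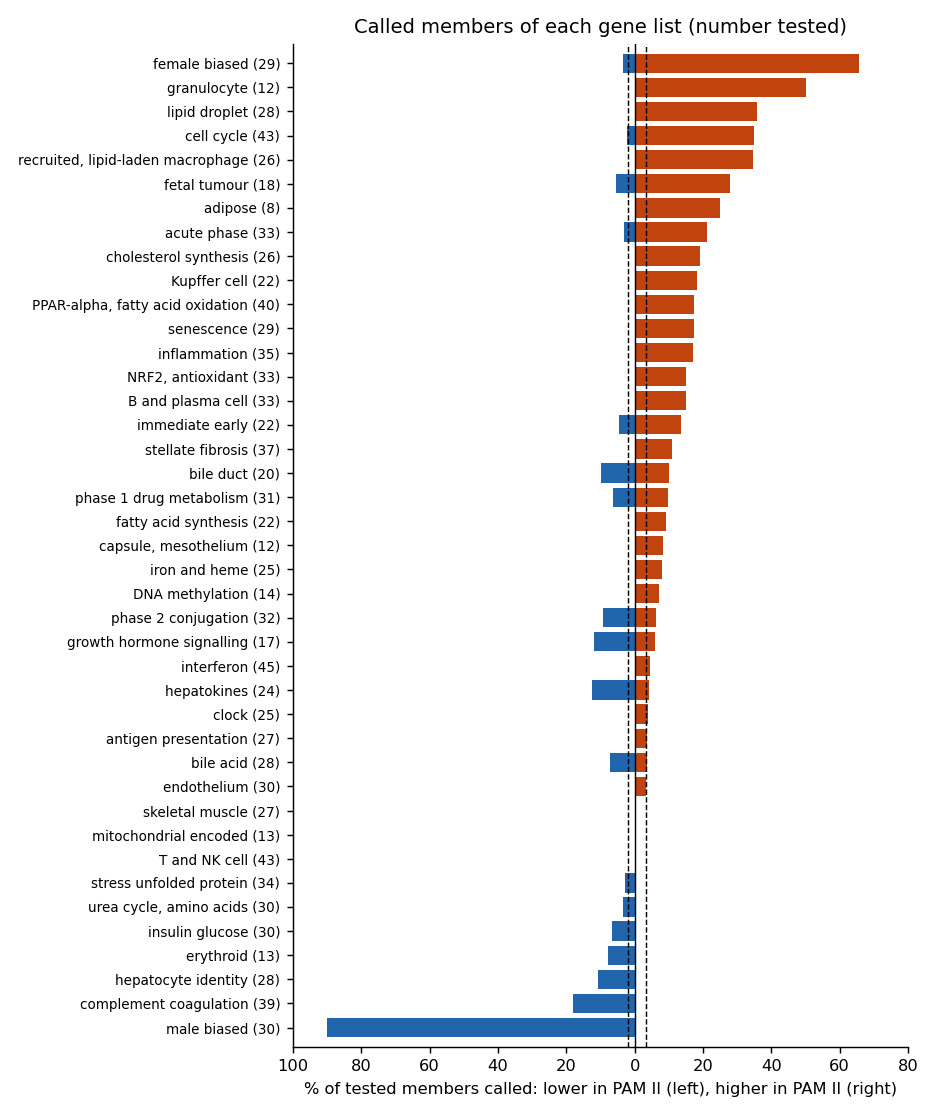
Percent of each list's tested genes (number in brackets) called higher (right) or lower (left) in PAM II than in young, with dashed lines at the share of all genes tested, 3.17% higher and 2.01% lower. The male-biased list (27 of 30 lower) and the female-biased list (19 of 29 higher) have the largest shares of called genes.

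Several of the largest changes lay outside the lists. Rad51b, a gene of DNA repair, measured 33, 21.9, 10.6 and 8.77 CPM in PAM II and 0.702, 1.85, 0.437 and 0.456 CPM in young (log2 fold change 4.42 ± 0.53, adjusted p = 0.000244). Gprc5b, an orphan receptor, measured 26.8, 21.4, 21.2 and 27.1 CPM in PAM II and 0.0916, 1.85, 3.23 and 0.456 CPM in young (log2 fold change 4.07 ± 0.68, adjusted p = 0.0035). Ntrk2 (TrkB), a neurotrophin receptor, measured 19.8, 17.1, 21.6 and 20.1 CPM in PAM II and 0.244, 1.75, 4.15 and 0.349 CPM in young (log2 fold change 3.57 ± 0.58, adjusted p = 0.00299). The 3 genes were at or below 4.15 CPM in every young liver and at or above 8.77 CPM in every PAM II liver. Serpinb1a, an inhibitor of neutrophil proteases, measured 7.94, 38.8, 20.9 and 63.1 CPM in PAM II and 1.98, 1.85, 0.923 and 3.67 CPM in young (log2 fold change 3.96 ± 0.66, adjusted p = 0.0035). Adgrf1, an adhesion receptor, measured 0.258, 0.354, 1.11 and 0.633 CPM in PAM II and 8.09, 4.47, 20.9 and 15.6 CPM in young (log2 fold change -4.38 ± 0.59, adjusted p = 0.000721). Clec2h, a C-type lectin-like surface protein, measured 0.722, 2.2, 2.28 and 2.27 CPM in PAM II and 40.3, 10.5, 19 and 26.7 CPM in young (log2 fold change -3.69 ± 0.52, adjusted p = 0.00106). Gadd45g, a growth arrest and stress gene, measured 13.1, 15, 14.7 and 7.64 CPM in PAM II and 481, 22.1, 77.8 and 71 CPM in young (log2 fold change -3.69 ± 0.71, adjusted p = 0.00762). Young 1 held far more Gadd45g than any other library, and without it the log2 fold change was -2.18. The naming rule took only genes without overlap, so the absence of overlap in these 7 genes follows from their selection.

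The aged controls share the age of PAM II but not the antibiotic label, and their values were set beside those of PAM II. Aged without antibiotics against young gave 327 higher and 224 lower genes (3.23% of those tested), from the same young libraries and thus not independent of the comparison above. The female-biased list gave 15 higher and a median of 1.74 there, and the male-biased list 21 lower and -2.04. The lipid droplet list gave 7 higher and 0.29, the cholesterol synthesis list 0 and 0.30, the Kupffer list 0 and 0.50, and the cell division list 5 and 0.90. Other lists were as high or higher in aged controls by count or median. The lipid-associated macrophage list gave 9 and 1.58 (9 and 1.71 in PAM II) and the inflammatory list 5 and 1.27 (6 and 0.86). The acute phase list gave 6 and 0.55 (7 and 0.53 in PAM II) and the T and NK cell list 3 and 1.15 (0 and 0.74). Cyp2b9 measured 108, 156, 84.3 and 119.8 CPM in aged controls 1 to 4 (log2 fold change over young 11.04, adjusted p = 3.56e-05). Cidea measured 5.04, 80.8, 74.1 and 57.1 CPM, aged control 1 lying far below the others (9.76, adjusted p = 5.58e-05). Hsd3b5 measured 0.343, 1.21, 1.05 and 0.20 CPM (-8.26, adjusted p = 0.000406). All 3 genes thus moved in the same direction in both aged groups. The difference between the aged groups was tested directly, and no gene of the 17046 was called between PAM II and aged controls (edgeR, smallest adjusted p 0.999955). At an unadjusted p below 0.05 there were 465 genes (2.73%). If no gene differed, that threshold would on average pass a larger share. DESeq2 and limma voom also called 0. The groups lie in different plate columns, so plate column and antibiotics cannot be told apart in that test.

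**Figure D5:**
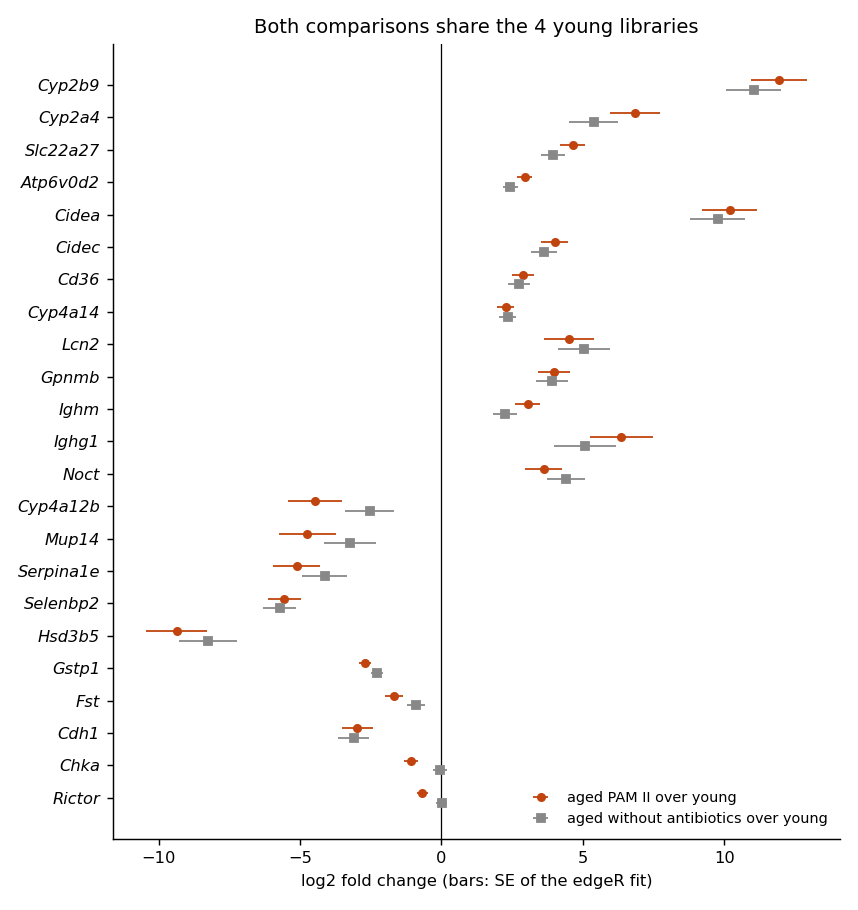
Log2 fold change over the same 4 young livers (x axis, bars are the standard error of the edgeR fit) of PAM II (circles) and aged no-antibiotic livers (squares) for genes named in the text. Cyp2b9 (11.95 and 11.04) and Hsd3b5 (-9.37 and -8.26) differ from young in the same direction in both groups, while Chka and Rictor lie below 0 in PAM II and near 0 in the aged controls.

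The 3 genes with the smallest unadjusted p between PAM II and aged controls were 6430590A07Rik, Chka and Pcolce2, none of them called. Chka had 154, 143, 243 and 166 CPM in aged controls, near its young level (log2 fold change over young -0.05), and its PAM II value against aged controls was -1.03 ± 0.24 (unadjusted p = 0.000709). The unnamed transcript 6430590A07Rik had 0.0516, 0.0506, 0.0652 and 0.0704 CPM in PAM II 1 to 4, 0.244, 0.25, 0.316 and 0.429 CPM in young and 0.565, 0.274, 0.351 and 0.134 CPM in aged controls. That was 11 fragments in all 4 PAM II libraries and 47 in young (log2 fold change -2.33 ± 0.49, adjusted p = 0.0128 against young; -2.43 ± 0.48 against aged controls, unadjusted p = 0.000124). Pcolce2, a collagen processing enhancer, measured 3.44, 1.72, 2.7 and 1.43 CPM in PAM II and 1.1, 0.674, 1.19 and 1.31 CPM in young and 0.807, 1.19, 0.986 and 0.624 CPM in aged controls; it was not called against young (log2 fold change 1.12, adjusted p = 0.0601) and had 1.37 ± 0.33 against aged controls (unadjusted p = 0.000816). Rictor, whose call against young depended on single libraries, had 21.8, 20.2, 23.4 and 22.9 CPM in aged controls. Its log2 fold change against them was -0.69 ± 0.19 (edgeR, unadjusted p = 0.0024). Each of these 4 genes had an adjusted p of 0.999955 in that contrast.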

How the data were processed

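RNA from frozen liver pieces was sequenced in 16 libraries, 4 a group. Reads were processed with Trimmomatic 0.38, HISAT2 2.1.0 and featureCounts 1.5.0-p2 on mm10, per the submitters' processing notes. The authors deposited raw counts per gene, 1 table a library with exon lengths, for Ensembl release 99 and strand setting 1, per the file headers. Counts have no molecular identifiers. The files hold 55471 genes, of which 55144 matched a symbol.

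From the counts, genes with enough reads given the 4 groups were kept (filterByExpr, 17046 genes), libraries were scaled by TMM, and edgeR 4.0.16 (R 4.3.3) was fitted with a robust quasi-likelihood and 1 mean per group over all 16 libraries. Calls are Benjamini-Hochberg adjusted p below 0.05, two-sided. The common biological coefficient of variation was 27.3%. Scripts were tested on simulated data. Genes on 43 lists (1119 of 1190 entries tested) are described by counts and medians without a list test. The comparison, lists and naming rule were chosen with earlier results of these data known. The alternatives changed the scaling (upper-quartile, RLE), the filter (none, or 1 CPM in 4 libraries), the robust step or the tool: DESeq2 1.42.0, limma 3.58.1 voom with sample weights. Others used 8 libraries only, a muscle covariate, or fewer libraries. No pair of the libraries compared held identical counts.

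Genes were named by rule: up to 15 a direction by fold change, from called genes whose groups did not overlap and whose log2 CPM averaged 1 or more, up to 4 per list by p, the 3 smallest p between PAM II and aged controls, and a fixed set (among them Pparg, Ighm, Fgf21, Saa1, Cdkn1a, Cdkn2a and Ddx3y). Cyp2b13, A1bg, Sult3a1, Hao2, Cyp17a1, Keg1, Elovl3, Mup3, Mup11, Mup20, Mup21, Cyp1a2, Gstm3, Mogat1, Fitm1, G0s2, Dhcr7, S100a8, Ighg2c, Top2a, C6, C8a, Bcl6 and Nat8f5 were named after their values were seen. Promoters came from the RefSeq table (GRCm38.p6), matched by symbol. A few called list genes are not reported here by name.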

Additional observations from a re-analysis of the deposited data

Results flagged for a closer look

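Groups of 4 libraries were tested over 140 of the genes named and over gene list levels. In 33 of 296 groups, 1 library lay far from the other 3. Its gap to the nearest of them, as a share of the group's range, passed the 95% critical value of Dixon's test for 4 values. For normally distributed values, chance flags about 1 in 20 groups. The CPM were tested without a log scale, and many of the genes were named for their values or vary together. The 33 of 296 are therefore no measure of an excess over chance. PAM II 1 was the library in 17 of the 33.

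PAM II 1 was far above the other PAM II livers for granulocyte proteins. It held 44.2 CPM of S100a8, 48.6 CPM of S100a9, 38.8 CPM of Ngp and 23.4 CPM of Mpo, where the other 3 reached at most 3.62 CPM in any of these genes. It was also high for Lcn2 at 133 CPM (others 15.3 to 33.4 CPM), for the Kupffer cell gene Cd5l at 368 CPM (others 80.7 to 115 CPM), and for Hmox1 at 139 CPM (others 27.1 to 39 CPM). Mean log2 CPM of the erythroid list was 5.26 in PAM II 1 and 2.25 to 2.52 in the others. Immunoglobulin-related transcripts showed the same library, with 16.0 CPM of Jchain and 6.41 CPM of Ighg2c. Further genes highest in PAM II 1 were Cdh1 at 25.1 CPM, Cdkn2a at 3.45 CPM, Saa1 at 201 CPM, Uhrf1 at 3.09 CPM and Fabp4 at 55.5 CPM. The library was lowest for Klkb1 at 141 CPM (others 161 to 165 CPM) and Clec2h at 0.722 CPM (others 2.20 to 2.28 CPM).

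PAM II 2 was highest for Ptges at 11.9 CPM (others 4.34 to 5.59 CPM) and lowest for G0s2 at 106 CPM (others 127 to 129 CPM). Among young livers, young 4 was highest for Hsd3b5 at 311 CPM (others 175 to 187 CPM) and for Mup7 at 4517 CPM (others 966 to 1282 CPM), and lowest for Cyp2a4 at 0.188 CPM. Young 2 was highest for Prlr at 89.1 CPM, Elovl6 at 201 CPM, Acat2 at 82.3 CPM, Ighm at 31.9 CPM and Acot3 at 6.64 CPM. Young 1 was highest for Gcgr at 731 CPM and Gadd45g at 481 CPM, where the others reached at most 373 and 77.8 CPM, and lowest for Apcs at 40.4 CPM and Mmp14 at 38.7 CPM. Young 3 was highest for Tff3 at 87.6 CPM (others 3.29 to 6.28 CPM) and for Fst at 18.9 CPM (others 6.44 to 7.97 CPM).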

How the results depend on the processing

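Main counts were 541 higher and 343 lower genes in PAM II than in young. They kept within 1.5 times of these values with RLE scaling (540 and 350), upper-quartile scaling (640 and 275), the stricter filter on low counts (468 and 332), dispersions without the robust step, and the muscle level as a covariate (768 and 496). DESeq2 called 1146 and 714 genes and limma voom 840 and 712. Without a filter, 218 genes were lower, and with the 8 libraries of the 2 groups alone 222 were lower. With PAM II 1 as the only PAM II library, which is then assumed to vary like the other groups, 139 were lower. Chosen after seeing the data, the fit without PAM II 1 and young 2 gave 354 higher, and the fit without PAM II 1 and young 1 gave 218 higher and 118 lower. Leaving out 1 library at a time gave 204 to 562 higher and 169 to 437 lower genes. The cause of these moves was not tested. The count of 0 between PAM II and aged controls was 0 in each alternative run. None of the 140 named genes refitted in the alternatives reversed direction.

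Of the 884 calls, 310 remained in each leave-one-out fit and 119 in all 20 alternatives. Among named genes with calls in every leave-one-out fit, limma voom did not call A1bg, Cidea, Cyp2b13, Hao2 or Ly6d. The 8-library fit did not call Klkb1. Without PAM II 1 and young 1 together, Ccnb1, Cyp17a1, Cyp4a12b, Efemp1, Klkb1, Lcn2, Ly6d, Mup14, Slc22a26, Tpx2 and 6430590A07Rik were not called. Without PAM II 1 and young 2, Ccnb1, Cyp4a12b, Igkc and Mup14 were not called. With PAM II 1 as the only PAM II library, 355 of the 884 calls remained. Of the named genes called in every leave-one-out fit, the log2 fold changes that moved by over 1.5 times there were 0.81 for A1bg, 1.92 for Acot3, -1.83 for Cdh1, 2.99 for Cyp2a22, 0.73 for Cyp2c38, 1.35 for Cyp2c39, 0.72 for Gstm2, 1.93 for Noct and 1.90 for Serpinb1a, none of them called (adjusted p from 0.0756 to 0.77), and 3.30 for Mki67 and -1.29 for Ugt2b5, both called. No paired analysis was possible because the labels give no replicate numbers: the numbers used here only name libraries within a group. Counts of a few fragments, as in young livers for Cyp2b9 and Hao2, limit the precision of the largest fold changes, and a gene that misses the threshold here is not shown to be equal.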
